A study of Mus musculus with 8 samples.

Results

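The IgLON adhesion family comprised 5 genes, Opcml, Ntm, Lsamp, Negr1 and Iglon5, which were taken by symbol from all 8 libraries of a mouse RNA-seq series on TCF-1, the HMG-box factor encoded by Tcf7. All 5 were listed in both gene tables, which held 53465 genes for the fibroblast line NIH-3T3 and 31053 genes for the T cell precursor line Scid.adh, with 30731 genes in both. The family was picked because Opcml was among the deepest falls when TCF-1 was induced in 3T3 cells, so the 3T3 values of the members are given as a description, without a test. The knockout comparison in Scid.adh was not used to pick them.

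The series sequenced total RNA, and its stated subject is how TCF-1 rearranges the folding of the genome. Normal 3T3 cells (2 libraries) are labelled wild type and untreated, and induced 3T3 cells (2 libraries) are labelled as having Tcf7, and so TCF-1, induced. Per the file headers, all 4 of these libraries carried cas9, an empty LRG21 vector, pIND21 and P33, all were taken at 72 hours, and doxycycline (dox) was named only for the induced ones, so that the effects of the drug and of TCF-1 cannot be told apart. Scid.adh cells, used as a model of the DN3 stage of thymocyte development, were either wild type with an empty vector (2 libraries) or Tcf7-/- (2 libraries, labelled TCF1 KO). Separate cultures are not told from repeated libraries in the labels, nor a knockout clone from a pool, so a p-value here reflects library-to-library spread alone, which may be technical.

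IgLON proteins are small members of the immunoglobulin superfamily that are tethered to the outer face of the plasma membrane by a glycosylphosphatidylinositol (GPI) anchor. They bind one another on the same cell and between cells, as like or unlike pairs, and are best known from neurons, where they influence neurite outgrowth and synapse formation. Metalloproteases can shed them from the cell surface. Opcml is also known as a tumour suppressor that binds several receptor tyrosine kinases, Ntm encodes neurotrimin, Lsamp encodes the limbic system-associated membrane protein, Negr1 encodes neuronal growth regulator 1, and Iglon5 is the target of autoantibodies in a human sleep and movement disorder.

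Opcml and Ntm are neighbours on chromosome 9 and share sequence at their starts, which matters for how short reads are assigned to them. Opcml spans 27790775 to 28925410 on the plus strand of GRCm38 and Ntm 28994750 to 29963141 on the minus strand, which leaves a gap of 69.3 kb between their ends. The longest stretch that protein-coding transcripts of the pair, read in the same direction, have in common was 124 bases. It lies in the first exons of the transcripts Opcml-201 and Ntm-203, with 29 bases before the annotated start codon and 95 coding bases, and the coding bases are shown here 5′ to 3′ with the start codon in capitals (GENCODE M21, GRCm38). The same letters stand at chr9:28404246-28404340 on the plus strand and at chr9:29411628-29411722 on the minus strand.
Opcml-201 and Ntm-203: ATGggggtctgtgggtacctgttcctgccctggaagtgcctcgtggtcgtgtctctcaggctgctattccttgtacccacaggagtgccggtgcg
Between protein-coding transcripts read in the same direction, no other pair of members had more than 27 bases in common. Those 27 (Opcml and Iglon5) were a run of alternating a and c. Of the 14489 windows of 38 bases, the length of the first read, in Opcml transcripts, 194 (1.34%) also occurred in another gene and 95 of those in Ntm. The share was 1.71% for Ntm, 0.151% for Lsamp, 0.918% for Iglon5 and 0 of 10496 windows for Negr1. Windows were compared over all annotated transcripts and on both strands, so sharing can go beyond the stretches above. In that count, 2 windows of Lsamp and 2 of Iglon5 also occurred in another member. Reads of the 5 genes can therefore be told apart over nearly all of their length.

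The sequences before the annotated starts are shown for the 3 members that were detected well above the floor in fibroblasts, because TCF-1 is a DNA-binding factor. They are RefSeq promoter entries for GRCm38.p6, written 5′ to 3′ along the gene. The only window of Opcml (chr9:27791049-27791348) lies inside the span of the gene in the GENCODE annotation, so 30 bases of it are given (chr9:27791269-27791298, plus strand). It does not reach the first exon of Opcml-201, so the bases before that start were not examined. For Negr1 (chr3:156561544-156561793, plus strand) and Iglon5 (chr7:43490212-43490461, minus strand) the 250 bases before the start are given.
Opcml: aaacattggatttaaacctgctcagaattc
Negr1: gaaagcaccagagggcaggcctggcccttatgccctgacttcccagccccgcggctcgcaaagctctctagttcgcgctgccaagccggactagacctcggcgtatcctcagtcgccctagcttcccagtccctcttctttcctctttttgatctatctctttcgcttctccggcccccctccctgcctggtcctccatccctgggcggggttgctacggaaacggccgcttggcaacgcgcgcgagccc
Iglon5: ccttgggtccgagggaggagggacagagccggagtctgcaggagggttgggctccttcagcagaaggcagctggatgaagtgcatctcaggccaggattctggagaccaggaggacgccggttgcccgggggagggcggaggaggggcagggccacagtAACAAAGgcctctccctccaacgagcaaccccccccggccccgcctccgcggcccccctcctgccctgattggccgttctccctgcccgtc
The capitals mark the only match found in the 7 promoter windows of the 5 members (2 each for Ntm and Lsamp) to the core letters of TCF/LEF motifs. The letters CTTTGAT were searched on both strands, as were the letters CTTTGAA, the letters CTTTGTT and also the letters CTTTGTA, and none of these was found to overlap another there. The match is CTTTGTT read on the opposite strand, 91 bases before the RefSeq start of Iglon5, which lies upstream of the GENCODE start. Of all 32851 promoter windows of the same length, 16.9% held at least 1 of these motifs and 5.85% held CTTTGTT, so a match in 1 of 7 windows is close to the share over all windows. The windows of Iglon5 and Negr1 were rich in G and C (69.7% and 68.0%, against a median of 52.7% over all windows), while that of Opcml was near the median at 53.7%.

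The members differ widely in size. Lsamp, on the plus strand of chromosome 16 (39984361 to 42181679), spans 2197 kb, Opcml 1135 kb, Ntm 968 kb and Negr1, on the plus strand of chromosome 3 (156561794 to 157316445), 755 kb. Iglon5, on the minus strand of chromosome 7 (43472904 to 43490075), is the compact member with 17.2 kb. No exon of a member overlapped an exon of another annotated gene on either strand.

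Total counts over genes were 13850213 to 17523677 in the 3T3 libraries and 7740198 to 10392402 in the Scid.adh libraries. Tcf7 stood at 14.5 and 14.6 CPM (read counts brought to a common library size with TMM factors) in normal 3T3 and at 946 and 972 CPM in induced 3T3. Empty-vector Scid.adh libraries held 1318 and 1325 CPM of it and knockout libraries 646 and 624 CPM, so Tcf7 transcripts remained there. Of 10 fibroblast markers, summed levels were 28814 to 29477 CPM in normal and 26192 to 26257 CPM in induced 3T3, and of 10 T-lineage markers 4431 to 4492 CPM in empty-vector and 3718 to 3784 CPM in knockout Scid.adh. Single markers moved both ways. Of the 10 fibroblast markers in 3T3, 4 were called higher and 4 lower, against 18.5% and 18.3% of all tested genes. All but Lum averaged at least 10 CPM, where 25.9% of tested genes were higher and 25.6% lower. Among the markers, Fn1 went from 11619 to 8609 CPM. Of 9 T-lineage markers tested in Scid.adh, 1 was higher and 7 lower, against 15.6% and 15.9%. All 9 averaged at least 10 CPM, where 9.41% of tested genes in that line were higher and 21.0% lower. Since the family is best known from neurons, 8 neuronal markers were summed as well. That sum was 69.3 to 70.3 CPM in normal and 31.1 to 31.6 CPM in induced 3T3, of which the microtubule gene Map2 made up 60.3 and 22.4 CPM, while the synaptic vesicle gene Syp had group means of 0.334 and 0.219 CPM. Of the 6 tested there, Map2 and Slc17a7 fell and Tubb3 rose. The lower sum went with less Opcml, and its part in that result was not tested. In Scid.adh the neuronal sum was 2.67 to 5.04 CPM in empty-vector and 7.60 to 8.63 CPM in knockout libraries. The sum of 6 glial markers was 18.0 to 18.8 CPM over all 3T3 libraries. It was 162 to 178 CPM over all Scid.adh libraries, where Mbp had group means of 150 and 155 CPM. No marker was at 0 in all libraries of a line.

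Induction of TCF-1 in 3T3 cells went with less Opcml, slightly less Negr1 and more Iglon5, while Ntm and Lsamp were barely detected in either state. Opcml counted 387 and 429 reads in the normal libraries, or 24.2 and 24.6 CPM, and 101 and 73 reads in the induced libraries, or 5.95 and 5.26 CPM. Both induced libraries lay far below both normal ones, and the libraries of a group lay close together (24.4 ± 0.306 and 5.61 ± 0.486 CPM, mean ± SD, n = 2). The fitted log2 fold change was -2.11 (SE 0.11), which is a 4.33-fold lower level. In bulk RNA, fewer expressing cells and less RNA per cell cannot be told apart. Negr1 counted 121 and 155 reads (7.57 and 8.90 CPM) in normal cells and 94 and 83 reads (5.54 and 5.98 CPM) in induced cells. Its groups did not overlap either, but the gap between them, from 7.57 down to 5.98 CPM, was little wider than the gap between the 2 normal libraries. Its log2 fold change was -0.52 (SE 0.14), and -0.40 without normal library 2.

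Iglon5, the most abundant member per exon length, moved the other way. It counted 1746 and 1881 reads (109 and 108 CPM) in normal and 2767 and 2127 reads (163 and 153 CPM) in induced cells, a log2 fold change of 0.54 (SE 0.05) or 1.46-fold. Both induced libraries lay above both normal ones. Ntm had 1 and 1 reads in normal cells and 3 and 1 in induced cells, a ratio of 2.16 with a 95% counting interval from 0.310 to 23.9. Lsamp had 3 and 2 reads in normal and 2 and 1 in induced cells, a ratio of 0.649 with an interval from 0.101 to 3.34. At this depth 3 counts corresponded to 0.172 to 0.216 CPM, so Ntm and Lsamp stood at or below that floor in every 3T3 library and no difference was detectable. Such intervals cover counting error only, since no molecular identifiers mark copies of a fragment.

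**Figure D1:**
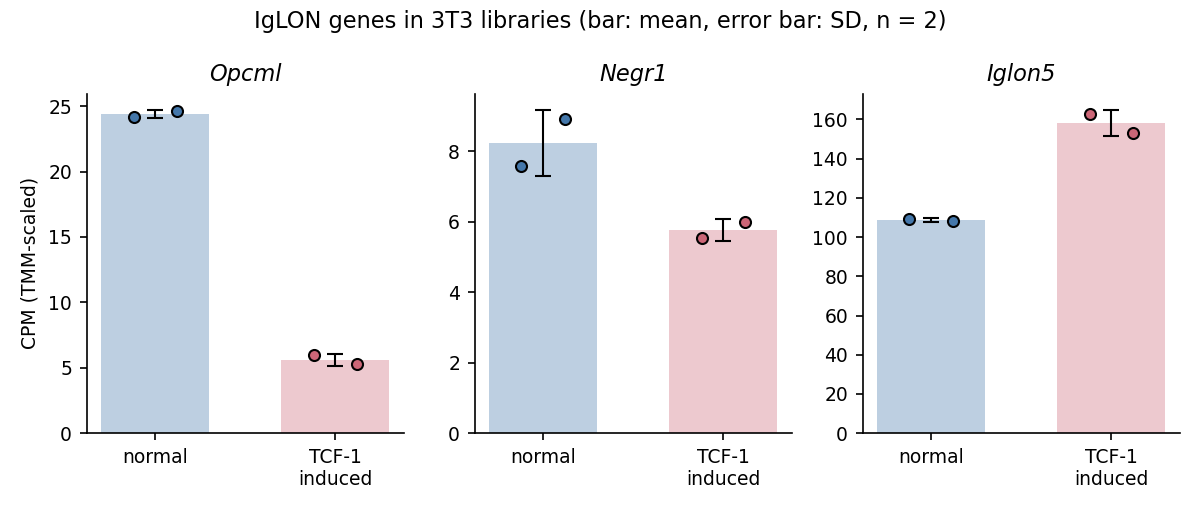
CPM (y axes, different scale in each panel) of Opcml, Negr1 and Iglon5 in the 2 normal and 2 induced 3T3 libraries, with bars for the mean, error bars for the SD (n = 2) and points for single libraries. Opcml goes from 24.2 and 24.6 to 5.95 and 5.26 CPM, Negr1 is lower by less and with a wider spread, and Iglon5 is higher at 163 and 153 against 109 and 108 CPM.

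In 3T3, 3 of the 5 members passed the filter on low counts and entered the fit over all genes that gives their log2 fold changes. Since the family was picked on this contrast, no test of them is read there. Of the 18185 genes tested, 36.8% were called by edgeR's quasi-likelihood test at a Benjamini-Hochberg adjusted p under 0.05, 18.5% higher and 18.3% lower, and 32.4% had induced libraries wholly above and 32.7% wholly below the normal ones. These shares differed with level. Among the 4511 tested genes with a mean below 2 CPM, 5.43% were called higher and 7.58% lower. Among the 9778 with at least 10 CPM, 25.9% were higher and 25.6% lower. Only 30 tested genes had a more negative fitted change than Opcml. Of the 5596 called genes that averaged 5 CPM or more, it held rank 4 of the falls, behind the unnamed gene model Gm32647 (-2.62), the focal adhesion gene Tes (-2.39) and the flippase gene Atp10d (-2.24), and just ahead of the matricellular gene Postn (-2.08) and the pappalysin gene Pappa2 (-2.05). Negr1 held no such place, since 1933 tested genes (10.6%) had a more negative change. For Iglon5, 8.05% of tested genes had a more positive one.

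**Figure D2:**
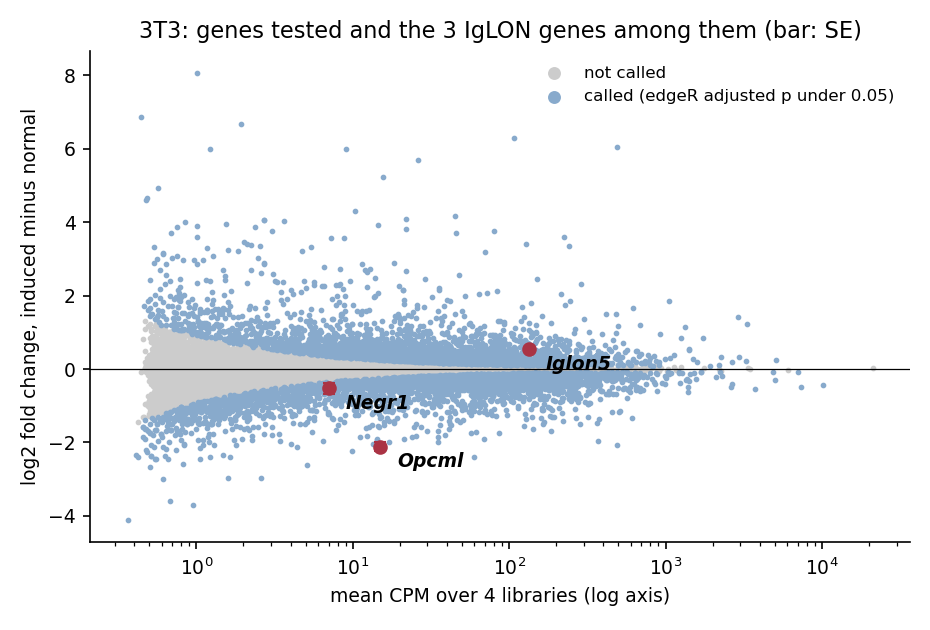
Each point is 1 of the 18185 genes tested in 3T3, with its mean CPM over 4 libraries (x axis, log scale) against its log2 fold change, induced minus normal (y axis), in blue where called and in grey where not, and red points with SE bars for Opcml, Negr1 and Iglon5. Opcml at -2.11 sits at the lower edge for its level, whereas Negr1 at -0.52 and Iglon5 at 0.54 lie within the cloud of called genes.

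Because the genes differ in length, levels were compared between members as CPM per kilobase of exon. In normal 3T3 cells Iglon5 led at 41.4 ± 0.317 CPM per kb, followed by Opcml at 1.68 ± 0.0211 and Negr1 at 0.784 ± 0.0898, with no overlap between these neighbours in the order. Lsamp (0.00879) and Ntm (0.00743) overlapped each other. In induced cells Iglon5 stood at 60.3 ± 2.60 CPM per kb, and the next places were exchanged, with Negr1 at 0.548 ± 0.0300 above Opcml at 0.386 ± 0.0335. The libraries of these members did not overlap, and the exchange was also seen with the length of the longest coding transcript in place of all exons. Iglon5 made up 94.5% and 94.2% of the summed level of the family per kilobase in the normal libraries and 98.5% and 98.4% in the induced ones. With the longest coding transcript as length, its mean share was 88.6% and 96.7%. The share of Opcml went from 3.78% and 3.88% to 0.649% and 0.610%.

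The genes whose pattern over the 4 3T3 libraries was closest to each member were found by the Euclidean distance of log2 CPM (prior count 2), centred on each gene's mean, among 11481 tested genes averaging 5 CPM or more. For Opcml they were Pappa2 (distance 0.0911, against a median of 2.12 over all candidates), Edil3, a secreted integrin ligand (0.128), and Hk2, the hexokinase of glycolysis (0.168). For Negr1 they were the deubiquitinase gene Mindy2 (0.0554), the transporter gene Abcb1b (0.0564) and Ccdc15 (0.0570). For Iglon5 they were the semaphorin receptor gene Plxna1 (0.0198), P3h4 (0.0206) and Pgd, an enzyme gene of the pentose phosphate pathway (0.0218). Likeness over 4 libraries in 2 groups mostly repeats the size of the change. Over all 8 libraries and 10968 genes, the closest to Opcml were the plexin gene Plxna4 (0.976), Ccser1 (1.07) and Ccn3 (1.24), against a median of 6.33. Plxna4 went from 27.1 to 6.82 CPM on induction in 3T3 and from 0.468 to 1.498 CPM in the Scid.adh knockout, low levels in that line as for Opcml.

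In Scid.adh cells every member was close to the limit of detection, and each had more reads in both knockout libraries than in either empty-vector library. Opcml counted 1 and 4 reads in empty-vector cells, against 10 and 7 in knockout cells, or 5 against 17 in sum, a ratio of 3.94 after scaling to library size with a 95% counting interval from 1.40 to 13.7. Negr1 counted 4 and 2 reads and then 6 and 6, a ratio of 2.32 with an interval from 0.805 to 7.52. Iglon5 counted 4 and 8 reads and then 12 and 10, a ratio of 2.12 with an interval from 1.01 to 4.71. Ntm had no read in empty-vector cells, then 1 and 2 in knockout cells. Lsamp, also without a read in empty-vector cells, had 1 and 4 in the knockout. With 3 counts in a library as the floor, 1 value lay above it, the 4 reads of Lsamp, so no fold is given for either gene.

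Only Iglon5 passed the filter on low counts in Scid.adh, and it passed through its knockout libraries, which favours a difference in that direction. Its empty-vector libraries stood at 0.403 and 0.854 CPM and its knockout libraries at 1.46 and 1.19 CPM. The log2 fold change was 1.07 (SE 0.51) and did not pass edgeR's quasi-likelihood test (Benjamini-Hochberg adjusted p = 0.128). Without the filter it was 1.01 (edgeR adjusted p = 0.239). Its adjusted p was 0.0913 to 0.626 over the alternatives in edgeR, limma-voom and DESeq2, with log2 fold changes from 0.61 to 1.67. Opcml entered the fit only under some alternatives. In a joint edgeR fit of all 8 libraries it had a log2 fold change of 1.91 (SE 0.68, adjusted p = 0.0271), but it entered that fit through the 3T3 libraries that led to its choice, so nothing is read from that value. Without a filter in edgeR it did not pass (1.87, adjusted p = 0.0985). It also missed the threshold in edgeR fits that left out empty-vector library 1 (1.22, adjusted p = 0.392), empty-vector library 2 (3.16, adjusted p = 0.0672) or knockout library 2 (2.17, adjusted p = 0.0598).

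Higher counts in the knockout were common among genes this rare. Of 7433 genes in the Scid.adh table with 3 to 34 counts in all, the range of the members, 51.3% had both knockout libraries above both empty-vector libraries and 7.26% had both below. Of all 11941 genes tested in that line, 31.5% were called, 15.6% higher and 15.9% lower, and 32.8% had knockout libraries wholly above and 33.9% wholly below the empty-vector ones. Among the 1662 tested genes with a mean below 2 CPM, 36.5% were called higher and 3.13% lower, whereas among the 8034 with at least 10 CPM 9.41% were higher and 21.0% lower. The share of reads that the counting assigned to no feature was 21.3% and 21.6% in empty-vector and 22.3% and 25.8% in knockout libraries. Where in the genome these reads lie is not given. The part that these differences play in the counts of the members was not tested.

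**Figure D3:**
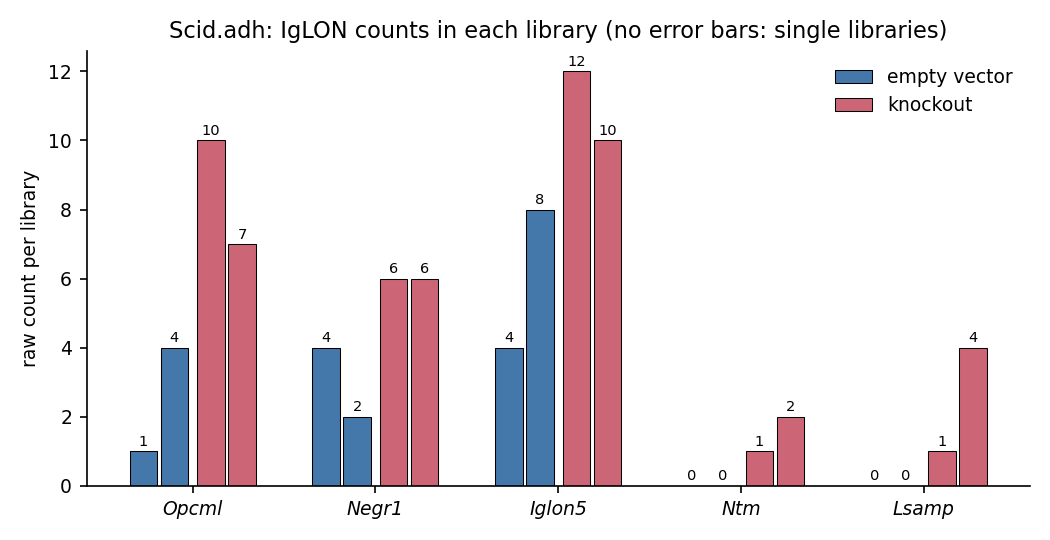
Raw read counts (y axis, reads per library) of the 5 members in the 2 empty-vector and 2 knockout Scid.adh libraries, each bar a single library with its count written above it. All counts lie between 0 and 12, and for each member both knockout bars are higher than both empty-vector bars.

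Per kilobase, Iglon5 again led in Scid.adh, at 0.240 ± 0.122 CPM per kb with the empty vector and 0.505 ± 0.0735 in knockout cells. Negr1 (0.0293) and Opcml (0.0182) overlapped with the empty vector, and Opcml (0.0705) and Negr1 (0.0686) overlapped in the knockout, as did Ntm (0.0222) and Lsamp (0.0173). Opcml and Negr1 stood above Ntm and Lsamp without overlap in the knockout. With the empty vector that order rests on 1 and 4 reads of Opcml and 4 and 2 of Negr1 against no read, partly below the floor of 3 counts. It could not be told there, nor could the order within each of these pairs in either group. Opcml was thus lower with more TCF-1 in 3T3 and had fewer reads with more TCF-1 in Scid.adh, and Iglon5 was higher with more TCF-1 in 3T3 and had fewer reads with more TCF-1 in Scid.adh. The difference between the lines was not tested, and levels between the lines rest on different gene tables.

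Receptor tyrosine kinases that Opcml or other IgLON proteins are known to bind include fibroblast growth factor receptors, EphA2, HER2 and Axl. Of the 7 listed, 6 were tested in 3T3, 3 rose, 2 fell and 1 did not pass, which is 83.3% called against 36.8% of all genes, with a median log2 fold change of 0.04 against 0.00 over all tested genes. All of those tested but Fgfr3 averaged at least 10 CPM, a level at which 25.9% of all tested genes were higher and 25.6% lower. Fgfr2 fell from 132 ± 1.88 to 39.4 ± 0.0173 CPM (-1.74 on the log2 scale, SE 0.05, edgeR adjusted p = 3.77e-29), and Fgfr1 fell by 0.41 on the log2 scale (edgeR adjusted p = 1.64e-15). Epha2 rose from 31.1 ± 1.43 to 46.6 ± 1.62 CPM (0.58) and Erbb2, the gene of HER2, from 85.1 ± 2.28 to 98.7 ± 8.42 CPM (0.22). In Scid.adh, where the median of all tested genes was -0.00 and 15.6% were called higher (36.5% of those below 2 CPM), the 2 that were tested rose in the knockout from low levels, Fgfr3 from 0.617 ± 0.268 to 3.31 ± 1.16 CPM (2.39, edgeR adjusted p = 0.00229) and Fgfr2 from 0.783 ± 0.252 to 3.12 ± 0.0537 CPM (1.99, edgeR adjusted p = 0.00313). Fgfr3 and Fgfr2 passed the filter on low counts in Scid.adh through their knockout libraries, which favours a rise. Fgfr2, like Opcml, was lower in induced 3T3, and it is also annotated with a span above 500 kb.

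Metalloproteases of the kind that cut surface proteins free all passed the test in 3T3, 2 of 6 upward and 4 downward (median -0.26), against 18.5% upward and 18.3% downward over all genes, though 1 upward and 2 downward without normal library 1. Every one but Mmp3 averaged at least 10 CPM, where 25.9% of all tested genes were higher and 25.6% lower. Mmp3, which fell, passed the filter on low counts through its normal libraries, which favours a fall. Mmp9, a secreted gelatinase, rose from 18.3 ± 1.52 to 66.1 ± 0.959 CPM (1.86 on the log2 scale, edgeR adjusted p = 1.61e-25) and Adam10, a membrane-bound sheddase, rose by 0.16. Mmp14, a membrane-anchored metalloprotease, fell from 643 ± 14.0 to 449 ± 6.87 CPM (-0.52, edgeR adjusted p = 8.52e-18), and the gelatinase gene Mmp2 fell by 0.37. In Scid.adh, where 31.5% of all genes were called, 2 of the 4 tested rose in the knockout and none fell, Mmp14 by 1.96 from 0.940 ± 0.332 CPM (edgeR adjusted p = 0.00268) and Mmp9 by 0.59 from 7.81 ± 1.07 CPM (edgeR adjusted p = 0.0409). Mmp14 passed the filter on low counts there through its knockout libraries, which favours a rise. The other 2 tested were Adam10 at 0.18 and Adam17 at -0.04. Without empty-vector library 2, and in DESeq2, 1 of the 4 rose.

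Of 31 other neural adhesion genes of the immunoglobulin superfamily, 16 were tested in 3T3, 1 rose and 3 fell, which is 25% called against 36.8% of all genes, and the median was 0.01. Alcam, the gene of a homophilic adhesion molecule, fell from 54.7 ± 4.48 to 15.1 ± 1.37 CPM (log2 fold change -1.86, edgeR adjusted p = 1.71e-23). Nectin2, a partner of other nectins at cell junctions, rose from 72.6 ± 2.17 to 140 ± 4.80 CPM (0.95, edgeR adjusted p = 5.33e-21), Kirrel fell by 0.21 and Ncam1 by 0.09. In Scid.adh, 8 of 15 tested rose in the knockout and 1 fell, with a median of 1.14, which is 60% called against 31.5% of all genes and 53.3% higher against 15.6%. Of all tested genes below 2 CPM in that line, 36.5% were higher. Mdga1, itself a GPI-anchored protein that binds neuroligins, rose from 0.676 ± 0.101 to 7.09 ± 0.631 CPM (3.37, edgeR adjusted p = 3.62e-05), and Kirrel rose by 2.99 from 0.264 ± 0.231 CPM (edgeR adjusted p = 0.00188). Mdga1, Kirrel and others of the 8 passed the filter on low counts through their knockout libraries. That favours a rise, and so also a higher median and a larger share called higher. Nectin1 fell by 0.36 from 178 ± 2.17 CPM. In DESeq2 the count was 3 higher and 1 lower, and without empty-vector library 1 it was 4 higher and 1 lower.

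The machinery that builds the GPI anchor was expressed in both lines. In 3T3, 7 of 26 tested genes of anchor synthesis and transfer rose and 3 fell (median 0.16), which is 38.5% called against 36.8% of all genes, and 4 rose and 2 fell in DESeq2 or without normal library 1. At 10 CPM or more, 25.9% of all tested genes were higher and 25.6% lower. Pign, an ethanolamine phosphate transferase of the pathway, rose from 71.5 ± 4.88 to 93.3 ± 3.20 CPM (log2 fold change 0.38, edgeR adjusted p = 1.01e-07) and Dpm2, a subunit of the mannose donor synthase, rose by 0.31. Pgap1, which removes a fatty acid from the finished anchor, fell from 20.2 ± 2.13 to 13.6 ± 0.281 CPM (-0.58, edgeR adjusted p = 5.48e-06), and Pigf fell by 0.30. In Scid.adh 3 of 26 rose and 4 fell (median 0.06), which is 26.9% called against 31.5%. There Pgap1 rose from 4.04 ± 0.274 to 10.9 ± 0.528 CPM (1.43, edgeR adjusted p = 0.000568) and Pigx by 0.59, while Pigl, the deacetylase of an early step, fell by 0.92 and Pigq by 0.56. Without empty-vector library 1, 1 rose and 3 fell.

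Other GPI-anchored surface proteins moved both ways in both lines. In 3T3, 10 of 27 tested rose and 7 fell (median -0.05), which is 63.0% called against 36.8% of all genes. The share over all genes was larger at 10 CPM or more, with 25.9% higher and 25.6% lower. Cd55, which protects cells from complement, rose from 2.35 ± 0.565 to 6.998 ± 1.32 CPM (log2 fold change 1.56) and Bst2, known as tetherin, from 8.84 ± 0.738 to 21.8 ± 2.54 CPM (1.30). Gfra2, a co-receptor for neurotrophic factors, fell from 8.36 ± 0.766 to 2.62 ± 0.785 CPM (-1.71) and the glypican gene Gpc6 from 114 ± 3.52 to 65.3 ± 0.0315 CPM (-0.80). Their adjusted p in edgeR's quasi-likelihood test was 5.83e-09, 7.39e-14, 8.15e-11 and 8.52e-18. In Scid.adh 5 of 17 rose and 4 fell (median -0.02), which is 52.9% called against 31.5%, led by the Nogo receptor gene Rtn4r (2.40) and Rgma (1.91) upward and the alkaline phosphatase gene Alpl (-1.82) and Cd55 (-0.80) downward. Rtn4r and Rgma, at 0.371 and 0.519 CPM with the empty vector, passed the filter on low counts through their knockout libraries, which favours a rise. Without empty-vector library 1, 1 of 19 rose and 3 fell, without empty-vector library 2, 2 rose and 2 fell, and in DESeq2 none of 17 rose and 2 fell.

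The genes around the members were examined within 1 Mb on either side. Over all genes tested in 3T3, 18.5% were called higher and 18.3% lower. Around Opcml, 8 genes were tested in 3T3, and none fell. The nearest of them, the junctional adhesion gene Jam3 at 635 kb, rose by 0.34 on the log2 scale (SE 0.13, edgeR adjusted p = 0.0352), from 7.65 to 9.71 CPM. The next tested gene beyond Ntm, the sorting nexin gene Snx19 at 464 kb, rose by 0.29 (SE 0.06, edgeR adjusted p = 6.03e-05). Around Lsamp, Zbtb20 fell by 0.35 and BC002163 rose by 0.37. Around Negr1, 13 genes were tested, of which Zranb2 (0.24), Cth (0.84) and Ankrd13c (0.26) rose and Srsf11 (-0.24) and Gm43362 (-0.86) fell. The nearest on its other side, 4930570G19Rik, did not pass (0.28, edgeR adjusted p = 0.668).

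Around Iglon5, the tested genes nearest to it also rose in induced 3T3. Of 26 tested within 1 Mb, 11 rose and 1 fell (Zfp141, -0.30 at 967 kb), against 18.5% higher and 18.3% lower over all genes. Vsig10l, an immunoglobulin-domain gene on the opposite strand whose 3′ end lies 0.885 kb from that of Iglon5, went up from 13.7 to 28.8 CPM (by 1.07 on the log2 scale, SE 0.09, edgeR adjusted p = 6.59e-14). Cd33, a sialic acid-binding receptor gene at 34.1 kb on the other side, rose from 4.10 to 10.6 CPM (1.35, SE 0.15, edgeR adjusted p = 2.77e-10), and Siglecg, of the same receptor family, rose by 1.19 at 54.5 kb. Etfb and the gene model Gm45233, which overlap each other, both rose by 0.45, and because reads between them cannot be told apart they are no separate measurements. The zinc finger genes Zfp658 (0.89), Zfp719 (0.40) and Zfp976 (0.35), the kallikrein gene Klk8 (1.11), Josd2 (0.41) and Emc10 (0.22) also rose. Over all members, 17 of 50 tested neighbours rose and 4 fell (median 0.20), which is 42% called against 36.8% of all genes. With Etfb and Gm45233 counted once, a choice made after the data were seen, 16 of 49 rose. Whether genes near Iglon5 move together more than genes elsewhere was not tested.

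**Figure D4:**
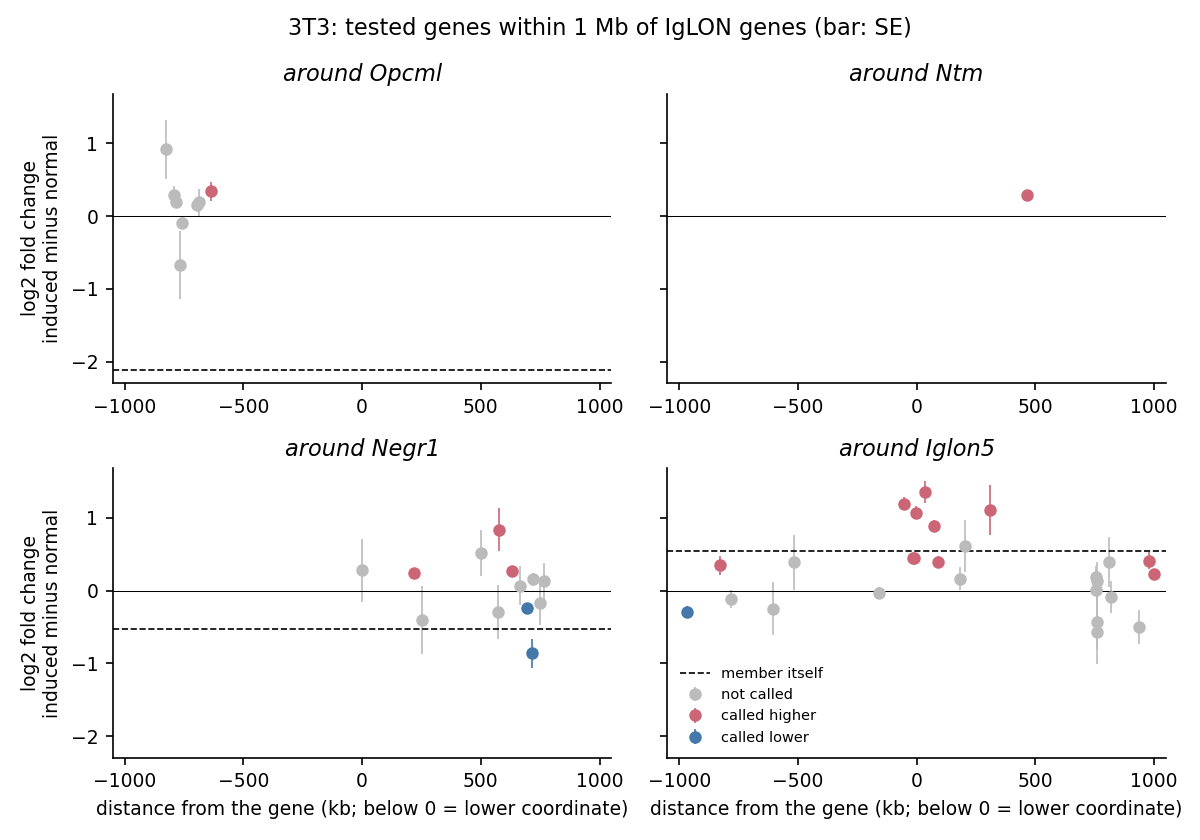
Log2 fold change in 3T3, induced minus normal (y axis, bars are SE), of tested genes within 1 Mb against their distance from the member (x axis, kb), in 1 panel each for Opcml, Ntm, Negr1 and Iglon5, coloured by call, with a dashed line at the member's own change where it was tested. The genes within 100 kb of Iglon5 all lie above 0, and those around Opcml lie between -0.67 and 0.91, while Opcml itself is at -2.11.

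In Scid.adh, 29 neighbours were tested, 4 rose in the knockout and 5 fell, which is 31.0% called against 31.5% of all genes. Without empty-vector library 1, 1 rose and 2 fell, and in DESeq2 1 rose and 1 fell. Near Iglon5, Etfb fell from 37.0 to 26.1 CPM (log2 fold change -0.50, edgeR adjusted p = 0.00584) and 2410002F23Rik by 0.31, while the synaptic scaffold gene Shank1 (1.03) and Lrrc4b (1.55) rose and Zfp658, the nearest tested on the other side, did not pass (0.14, edgeR adjusted p = 0.785). Near Opcml, Jam3 fell from 1.75 to 0.602 CPM (-1.53, edgeR adjusted p = 0.0412) and Thyn1 by 0.26. Beyond Ntm, Snx19 fell by 0.32, and the protease genes Adamts15 (1.98) and Adamts8 (2.12) rose from levels below 1 CPM. Both protease genes passed the filter on low counts through their knockout libraries, which favours a rise. Jam3 passed it through its empty-vector libraries, which favours a fall. The nearest tested to Negr1, Zranb2, did not pass (-0.00, edgeR adjusted p = 0.971), nor did Zbtb20 near Lsamp (0.77, edgeR adjusted p = 0.141).

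Opcml and Negr1 belong to the genes of very long span, of which more were called lower than higher in induced 3T3 and more higher than lower in the Scid.adh knockout. With the members left out, 129 tested genes of at least 500 kb remained in 3T3, of which 54 (41.9%) were called lower and 13 (10.1%) higher in induced cells, with a median log2 fold change of -0.25. Of the 13, 2 are overlapping gene models with identical counts, which leaves 12 separate measurements. The share called lower was 14.99% of 14187 genes below 50 kb, 29.3% of 3257 genes from 50 to 200 kb and 32.99% of 579 genes from 200 to 500 kb. Opcml at -2.11 was deeper than all others of the long class but Gm32647 (-2.62) among those with at least 1 CPM that were called, while Negr1 at -0.52 lay closer to the median of the class. The largest rises there were those of the guidance gene Slit3 (0.98) and the transcription factor gene Sox5 (0.57). The classes also differed in level, with a median of the mean CPM of 9.21 below 50 kb, 41.8 from 50 to 200 kb, 29.1 from 200 to 500 kb and 16.5 at 500 kb and above. Of all tested genes with at least 10 CPM, 25.9% were called higher and 25.6% lower. The part of level in the shares of the span classes was not tested. With a minimum of 5 CPM, 43 of 80 long genes (53.75%) were lower and 13 (16.25%) higher.

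In Scid.adh, of 90 long genes tested, 42 (46.7%) were called higher in the knockout and 9 (10%) lower, with a median of 0.68, against 14.0% higher below 50 kb, 18.8% from 50 to 200 kb and 22.3% from 200 to 500 kb. Nell1 rose from 0.104 to 2.59 CPM (4.47, edgeR adjusted p = 0.000343) and the receptor kinase gene Alk from 0.151 to 2.04 CPM (edgeR adjusted p = 0.00185), while Il1rapl1 (-1.95) and Gm26561 (-1.66) fell. Many of these genes were at low levels, and some, such as Nell1 and Alk, passed the filter on low counts through their knockout libraries, which favours a rise. Gm26561 passed it through its empty-vector libraries, which favours a fall. The long class had a median of the mean CPM of 2.88, and with a minimum of 5 CPM, a limit chosen after the data were seen, 12 of 37 rose and 6 fell with a median of 0.11. In DESeq2 21 of the 90 were higher and 6 lower, and without empty-vector library 1 the median over 107 long genes was 0.69. Whether span has a part in the values of Opcml and Negr1 was not tested.

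**Figure D5:**
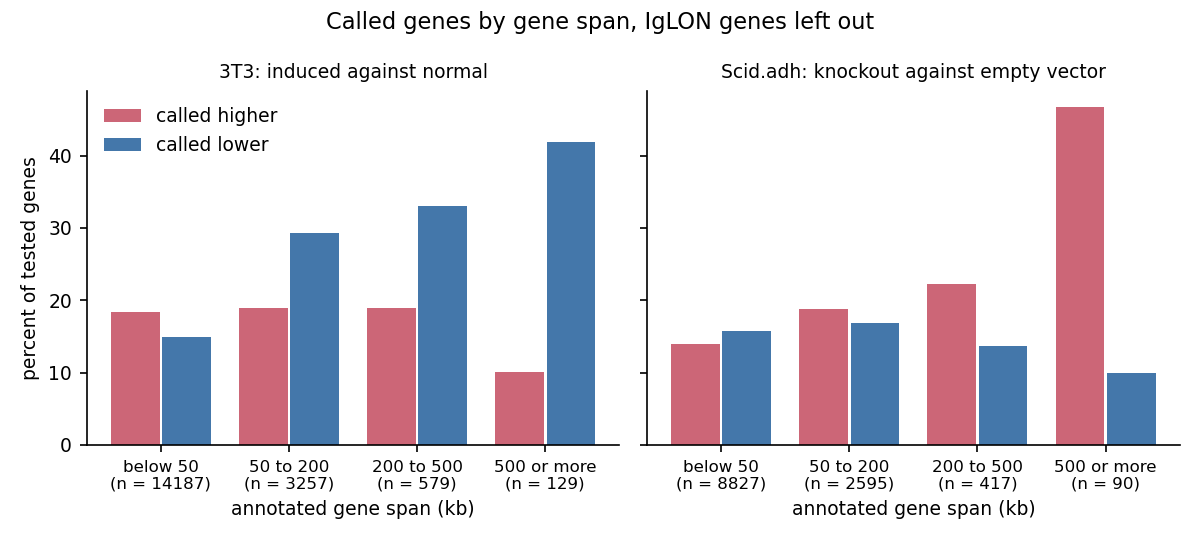
Percent of tested genes called higher (red) and lower (blue) in 4 classes of annotated gene span (x axis, kb, with the number of genes), for 3T3 induced against normal (left) and Scid.adh knockout against empty vector (right), with the IgLON genes left out. The share called lower in 3T3 climbs from 14.99% to 41.9% with span, and the share called higher in the knockout climbs from 14.0% to 46.7%. The classes also differ in level.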

How the data were processed

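Gene counts were analysed as deposited by the authors, in 1 table per library. Per the submitters' processing notes, STAR 2.5.0a, HTSeq 0.6.1 and the build GRCm38 (mm10) were used. Per the labels' protocols, stranded low-input libraries of total RNA were read in pairs of 38 and 37 bases. The sources used here do not give the strand setting, the annotation release or the program behind the 3T3 counts. Summary lines for unassigned reads (Scid.adh only) were left out.

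Counts were filtered with filterByExpr, scaled by TMM and tested within each line with edgeR 4.0.16 in R 4.3.3 (robust quasi-likelihood F-test, Benjamini-Hochberg adjustment over all tested genes, call at an adjusted p under 0.05). CPM and log2 fold changes were computed from these counts, as mean ± SD over 2 libraries. Libraries of a group differed with a biological coefficient of variation of 2.41% (3T3) and 5.94% (Scid.adh). On simulated counts the test found 83.0% of 2-fold changes in 3T3 (5 false calls among 17772 genes) and 77.1% in Scid.adh (14 among 11542).

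The members, the 7 lists and the tests were chosen with earlier results of these data known. The lists were IgLON-binding receptor tyrosine kinases, sheddases, other neural immunoglobulin-superfamily genes, GPI anchor synthesis, other GPI-anchored proteins, genes of at least 500 kb, and genes within 1 Mb of a member. In each list and line, up to 2 called genes per direction with the largest change and a mean of at least 1 CPM were named, with called and nearest neighbours and the 3 genes closest in pattern. Genes next to Opcml in rank, Ncam1, Plxna4 in Scid.adh, Adam10 and Adam17 in Scid.adh and the neuronal markers named were chosen after their values were seen. Symbols and spans came from GENCODE M21 (191 and 119 genes without a symbol), and promoter sequences from RefSeq. Alternatives used DESeq2 1.42.0, limma 3.58.1 (voom), other scaling factors and filters, the replicate number as a block, a joint fit, and each library left out in turn.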

Additional observations from a re-analysis of the deposited data

Results flagged for a closer look

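For Iglon5, the libraries with more Tcf7 transcripts were the higher ones in 3T3 and the lower ones in Scid.adh. In 3T3 both induced libraries lay above both normal ones (log2 fold change 0.54), whereas in Scid.adh both empty-vector libraries, which hold more Tcf7 transcripts, lay below both knockout ones (empty vector minus knockout, -1.07). The difference between the lines was not tested. The Scid.adh value rests on 12 and 22 counts and did not pass edgeR's quasi-likelihood test within that line (adjusted p = 0.128). Of the genes in that table with 3 to 34 counts, 51.3% likewise had both knockout libraries above both empty-vector ones.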

How the results depend on the processing

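Opcml and Iglon5 kept their direction in 3T3 under all 12 alternatives run (-2.21 to -2.04 and 0.50 to 0.58), and Iglon5 in Scid.adh under all 11 (0.61 to 1.67). Negr1 kept its direction (-0.52 in DESeq2, -0.63 to -0.40 over left-out libraries), while its call in the fit over all genes, from which nothing is read, ended in DESeq2 and without normal library 2. In DESeq2, called genes numbered 1977 higher and 2035 lower in 3T3 (3361 and 3332 in edgeR), and 880 and 1080 in Scid.adh (1861 and 1899). Upper-quartile factors gave 2455 higher and 1215 lower in Scid.adh, 66.9% of calls higher against 49.5%, and 6 higher and 2 lower neighbours in place of 4 and 5. Left-out libraries gave 1059 to 1911 higher and 1162 to 2321 lower there, with 1059 and 1162 without empty-vector library 1 and 1180 and 1198 without empty-vector library 2.

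Called list members under DESeq2 were 6 for 3T3 anchor synthesis and, in Scid.adh, 1 sheddase, 4 neural adhesion genes, 2 other GPI-anchored proteins, 27 long genes and 2 neighbours. Left-out libraries gave ranges of 3 to 5 sheddases and 6 to 11 anchor synthesis genes in 3T3, lowest without normal library 1. In Scid.adh they gave 5 to 8 neural adhesion genes, 4 to 9 anchor synthesis genes, 4 to 7 other GPI-anchored proteins, 32 to 54 long genes and 3 to 9 neighbours, lowest without empty-vector library 1, and 1 to 3 sheddases, lowest without empty-vector library 2. Long genes of at least 5 CPM without the members, added after the data were seen, had 18 calls. The longest coding transcript as length gave Iglon5 88.6% and 96.7% of the family level. The cause of these shifts was not tested.

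Library numbers did not pair the samples (correlation of deviations 0.0124 in 3T3 and 0.00147 in Scid.adh). With the replicate number as a block, 3633 genes were higher and 3577 lower in 3T3, 2028 and 2010 in Scid.adh, and Iglon5 there gave 1.08 (edgeR adjusted p = 0.122). With counts of 0 to 12 per library, depth limits every statement on the members in Scid.adh.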
